A study of Mus musculus with 36 samples.

Results

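On Day 3 of the BMP4 induced primed to naïve transition (BiPNT), cells were sorted by the surface receptor c-Kit, and the RNA of the c-Kit+ and c-Kit- cells was compared over all genes. The comparison used 4 of the 36 samples of the series, 2 RNA-seq libraries of each population, chosen by their sample labels. Both populations came from EpiSCs, the cultured mouse cells of the primed pluripotent state. The EpiSCs were derived from E5.5 embryos of males homozygous for the ΔPE-*Oct4*-GFP transgene (CBA/CaJ X C57BL/6J) and females of another inbred strain. This transgene, which places GFP under a distal *Oct4* enhancer, is shared by all 4 libraries. The cells had spent 3 days in Stage 1 medium, which is iCD1 medium (vitamin C, bFGF, LiCl, LIF and CHIR99021, a GSK3 inhibitor) with BMP4, the EZH2 inhibitor EPZ6438 and a DOT1L inhibitor, EPZ5676 or SGC0946. In some experiments of the paper the medium also held Parnate. Which DOT1L inhibitor these libraries received, and whether Parnate was added, is not given in the sources used here. Nor is it given whether the libraries of a population came from separate cultures. The p-values therefore measure the spread between libraries, which may be technical. No cell of the starting population enters these fits, so each value compares the sorted populations with each other and not with EpiSCs.

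Primed pluripotent cells and naïve pluripotent cells share a core of transcription factors around *Pou5f1*, *Sox2* and *Nanog*, and each state adds factors of its own. BMP4 acts on the early embryo in several ways: it allocates epiblast cells to the germ line and to the primitive streak, and in culture it can turn primed cells towards trophoblast-like and amnion-like cells. c-Kit, the receptor of the KIT ligand, is found on primordial germ cells (PGCs) and on several stem cells. The trophoblast is the outer epithelium of the embryo and forms the placenta under factors such as GATA2, CEBPA and ASCL2.

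The libraries held between 1726038 and 1841442 expected counts, of which mitochondrial genes took between 2.07% and 4.09%. Levels are given as TPM, an abundance corrected for transcript length and scaled to the library, for replicate 1 and then replicate 2. Where a sentence does not name the populations, they stand in the order of the last comparison that does. A gene was called where the edgeR quasi-likelihood test gave a Benjamini-Hochberg adjusted p under 0.05 and a fold change over 2. Folds are positive on the log2 scale where c-Kit+ cells were higher. Of 11018 genes tested, 1100 (9.98%) were called higher in c-Kit+ cells and 1418 (12.9%) higher in c-Kit- cells, and the median log2 fold change over all of them was 0.03. Where neither library of a population had more than 3 counts, that population is said to be at the floor and the fold is given as a lower bound. The fitted log2 fold change of such a gene is no bound. At the floor in the other population were 100 of the genes called in c-Kit+ cells and 108 of those called in c-Kit- cells. Another setting is named beside a gene where its call ended or began, such as an offset that scales each library by the GC content of the genes, or the replicate number as a block. In a principal component analysis the first component took 84.65% of the variance and separated the populations, and the second, with 8.681%, mainly separated the c-Kit- libraries. In bulk RNA, fewer cells of a type and less RNA per cell cannot be told apart.

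**Figure D1:**
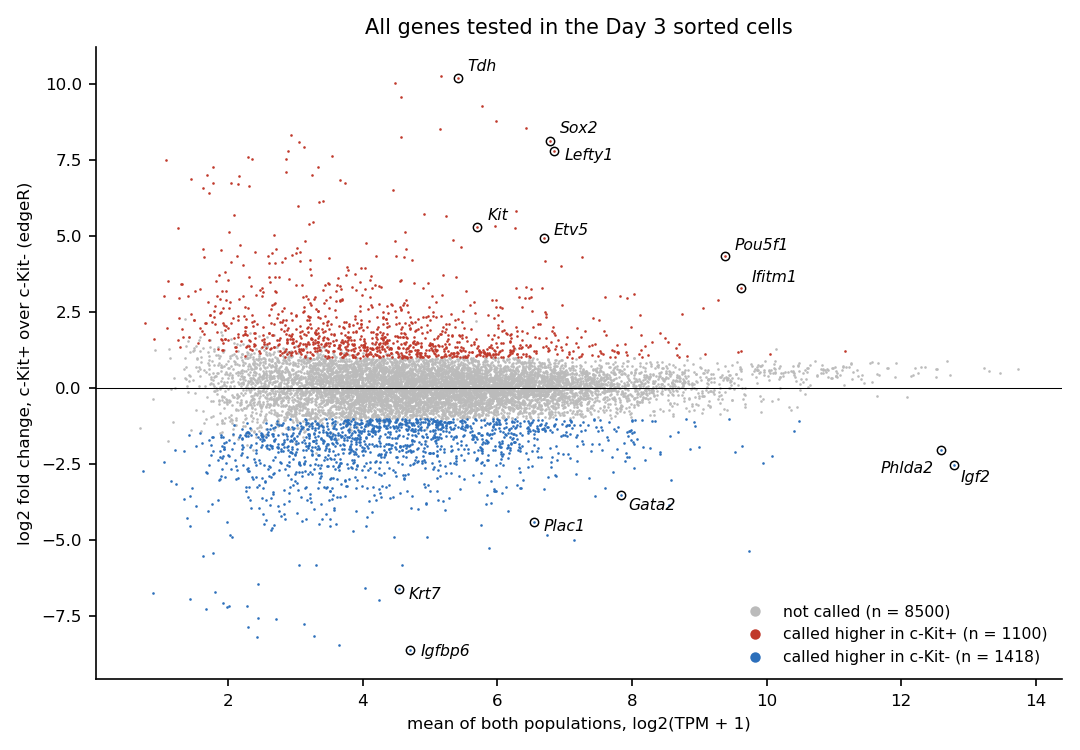
Log2 fold change (edgeR, c-Kit+ over c-Kit-) of each of the 11018 genes tested against the mean level of both populations in log2(TPM + 1). Red points are the 1100 genes called higher in c-Kit+ cells and blue points the 1418 called higher in c-Kit- cells. The values farthest from 0 include genes at the floor in the other population, whose fitted values are no bounds. *Igf2* and *Phlda2* stand at the right, as abundant genes of c-Kit- cells.

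The sorted receptor followed its label. *Kit* had 99.6 and 96 TPM in the c-Kit+ libraries and 4.81 and 3.24 TPM in the c-Kit- libraries, a 38-fold difference in CPM. *Pou5f1*, the gene of OCT4, had 1226 and 1291 TPM against 73.9 and 62.7 TPM. *Gata2* stood at 59.5 and 24.3 TPM against 437 and 386 TPM, and *Plac1*, a placental gene of the X chromosome, at 10.0 and 5.92 TPM against 204 and 148 TPM. All 4 of these genes were called. The c-Kit+ cells were not free of RNA of the trophoblast markers: *Gata2* in c-Kit+ replicate 1 was above replicate 2, and in the same direction lay 19 of the 25 trophoblast genes called higher in c-Kit- cells, against 59.1% of all 1418 genes called in that direction. The part of this in the results below was not tested.

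The pluripotency core was mostly higher in c-Kit+ cells. Of 25 genes listed for pluripotency in both states, 23 were tested, 18 were called, each higher in c-Kit+ cells, and the median log2 fold change of those tested was 2.41. With a minimum of 10 counts per library the 18 were 9, as genes under it in c-Kit- cells are then not tested. *Sox2* had 210.03 and 224 TPM in c-Kit+ cells and 0 and 1.58 TPM in c-Kit- cells, and *Nanog* had 131 and 117 TPM and 0.48 and 0 TPM. Both stood at the floor in c-Kit- cells, at least 148-fold and 89.5-fold below c-Kit+ cells. *Pou5f1* itself did not reach the floor and differed 19.8-fold (log2 4.34, standard error 0.115, edgeR adjusted p = 1.45e-07). *Utf1*, a chromatin factor of undifferentiated cells, kept 104 and 85.5 TPM in c-Kit- cells against 463 and 452 TPM, and *Sall4*, a zinc finger partner of OCT4, kept 21.5 and 30.9 TPM against 103 and 97.4 TPM. *L1td1*, an RNA-binding protein, had 228 and 230.5 TPM in c-Kit+ cells against 11 and 20.6 TPM in c-Kit- cells. *Dppa2*, with 14.2 and 16.8 TPM in c-Kit+ cells, was at the floor in c-Kit- cells, although it shares 24.7% of its 75-base sequence words with *Gm9788* and its level is uncertain. The members tested and not called were *Lin28a* (0.73), *Trim71* (-0.82), *Foxo1* (0.94), *Cdh1* (-0.57) and *Epcam* (0.14, as log2 fold changes), so E-cadherin and EpCAM, epithelial adhesion proteins, were not among the genes called. *Foxo1* (log2 1.25) was called without c-Kit- replicate 1.

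The promoters of *Nanog* and *Sox2*, whose genes showed the widest separation of this group, are given here because an octamer-like site (TTTGCAT on either strand), as POU factors such as OCT4 bind, lies in each. The sequences are the 250 bases before the outermost RefSeq start (GRCm38.p6), 5′ to 3′ on the strand of the gene, and the capitals mark the match.
*Nanog* promoter, chr6:122707239-122707488, plus strand: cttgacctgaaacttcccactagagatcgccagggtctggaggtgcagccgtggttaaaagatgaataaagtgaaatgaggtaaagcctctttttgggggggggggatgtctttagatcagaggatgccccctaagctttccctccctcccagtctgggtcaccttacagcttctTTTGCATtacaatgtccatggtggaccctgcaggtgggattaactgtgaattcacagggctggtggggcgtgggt
*Sox2* promoter, chr3:34649745-34649994, plus strand: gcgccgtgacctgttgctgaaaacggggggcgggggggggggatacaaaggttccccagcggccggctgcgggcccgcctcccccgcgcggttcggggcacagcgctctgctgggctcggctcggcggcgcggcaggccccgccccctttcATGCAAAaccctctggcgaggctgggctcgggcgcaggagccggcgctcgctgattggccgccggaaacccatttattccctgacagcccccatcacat
The match begins 75 bases before the start of *Nanog* and 99 bases before that of *Sox2*. In the same window, on either strand, these letters occurred in 4.83% of 807 promoters of genes called higher in c-Kit+ cells, in 2.72% of 1104 promoters of genes called higher in c-Kit- cells, in 2.91% of the promoters of tested genes and in 4.06% of all 27025 promoters in the RefSeq table. The share in c-Kit+ genes was thus above that of tested genes, from which the called genes come, and close to that of all promoters. These differences were not tested. A match describes letters in a window and is not evidence of binding.

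Naïve and primed factors were both found among the genes of c-Kit+ cells. On the list of naïve genes, 15 of 23 were tested. Of these, 7 (46.7%) were called higher in c-Kit+ cells and 1 (6.67%), *Zfp57*, in c-Kit- cells, against 9.98% and 12.9% over all genes. This 1 was 2 without c-Kit- replicate 1 and 0 without c-Kit+ replicate 1. *Nr5a2*, an orphan nuclear receptor that maintains *Pou5f1* in the epiblast, had 39.8 and 45.5 TPM in c-Kit+ cells and 0 and 0 TPM in c-Kit- cells. *Esrrb*, another orphan receptor of the naïve network, had 36.4 and 28.7 TPM against 4.01 and 2.39 TPM. *Klf2* differed less, at 274 and 220.02 TPM against 129 and 114 TPM. By contrast, *Klf4* and *Tfcp2l1* had log2 fold changes of -0.23 and 0.16 and were not called, and *Zfp42*, *Prdm14*, *Nr0b1*, *Tcl1* and *Dnmt3l* did not pass the filter on low counts in these libraries. On the list of primed genes, 16 of 21 were tested, 10 (62.5%) were called higher in c-Kit+ and 3 (18.8%) in c-Kit- cells. *Sox3* was the most separated of them, at 146 and 155 TPM against 2.59 and 3.15 TPM, a 56.1-fold difference. *Otx2* and *Foxd3*, which guard the post-implantation epiblast and its descendants, had 16.1 and 15.2 TPM and 9.55 and 19.4 TPM in c-Kit+ cells and were at the floor in c-Kit- cells. Like *Nr5a2*, they passed the filter on low counts through the c-Kit+ libraries and could hardly be called in the other direction. *Pou3f1* went the other way, with 4.61 and 1.01 TPM in c-Kit+ cells and 33.9 and 33 TPM in c-Kit- cells. The de novo DNA methyltransferases split, as *Dnmt3b* had a log2 fold change of 0.09 and *Dnmt3a* was lower in c-Kit+ cells, with 18.7 and 20.1 TPM against 44.5 and 53.6 TPM. *Fgf5*, the classical primed ligand, did not pass the filter, with 1.54 and 3.78 TPM in c-Kit+ cells and 0 and 0 TPM in c-Kit- cells. *Zfp57* (-0.9, not called), *Klf2* (0.98, not called), *Pou3f1* (-4.88) and *Dnmt3a* (-1.0, not called) had these log2 fold changes without c-Kit+ replicate 1. *Pou3f1* had a log2 fold change of -2.75 without c-Kit+ replicate 2. *Zfp57* (log2 -1.11) was not called with DESeq2.

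**Figure D2:**
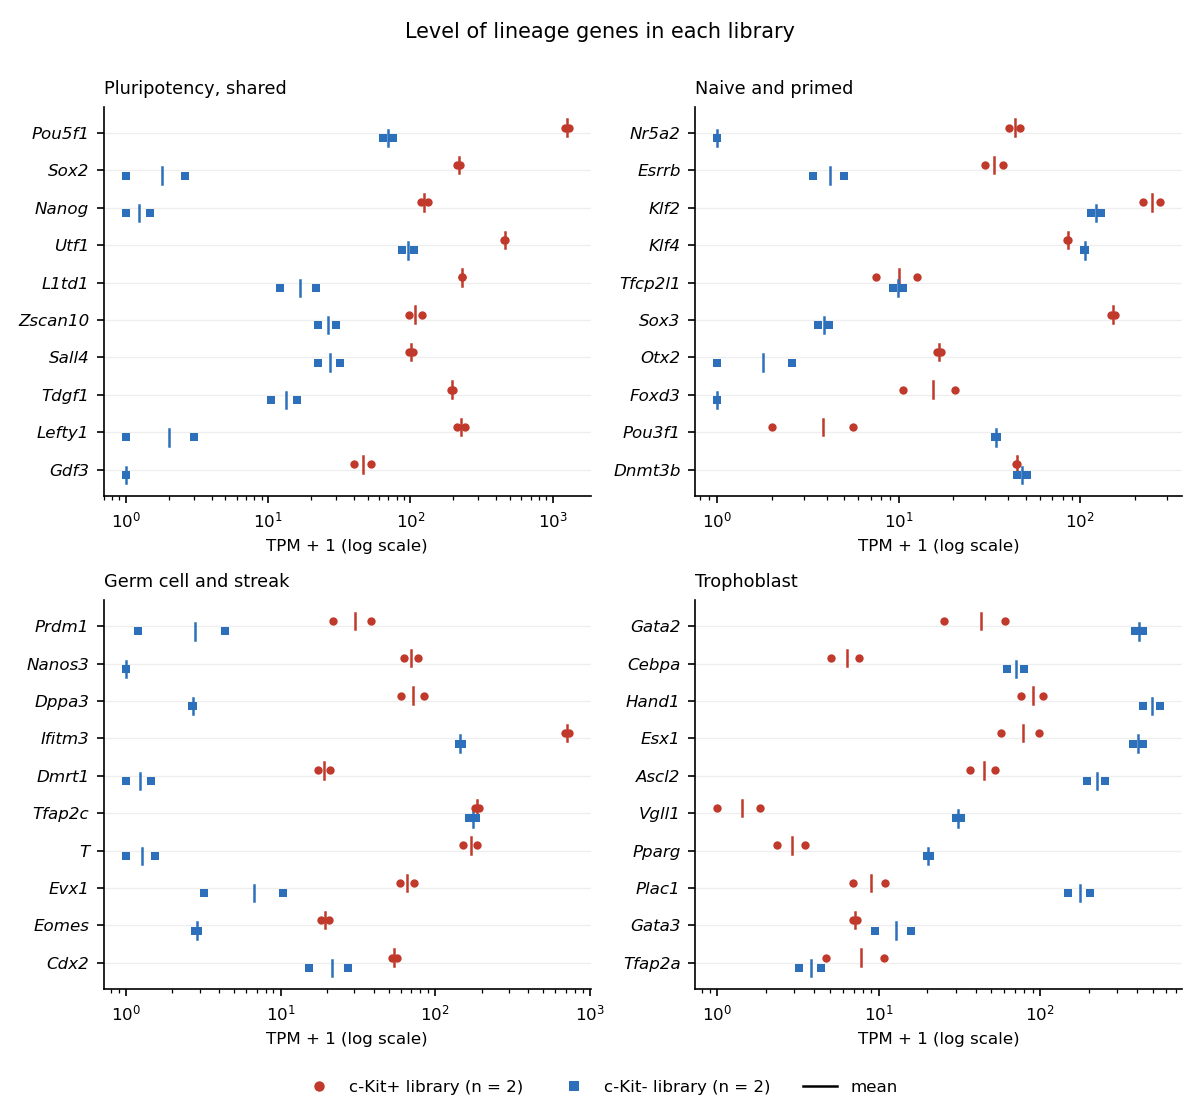
TPM + 1 on a log axis of 40 lineage genes in each of the 4 libraries. Circles are c-Kit+ libraries, squares c-Kit- libraries and short vertical lines the mean of 2. The core pluripotency genes and most germ cell and streak genes lie to the right in c-Kit+ cells, while *Tfcp2l1*, *Dnmt3b* and *Tfap2c* overlap between the populations.

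Genes of the early germ line formed a partial set. Of 17 listed genes 13 were tested, 7 were called higher in c-Kit+ and 3 in c-Kit- cells, with a median log2 fold change of 2.44. Several passed the filter on low counts through the c-Kit+ libraries alone, and with a minimum of 10 counts per library 2 and 1 were called. *Prdm1*, which represses the somatic program in PGC precursors, had 37.5 and 21 TPM in c-Kit+ cells against 0.2 and 3.4 TPM among c-Kit- ones, a log2 fold change of 4.77. *Nanos3*, an RNA-binding protein needed for PGC survival, had 76.1 and 62 TPM against 0 and 0 TPM. *Ifitm1* and *Ifitm3*, interferon-induced membrane proteins found on early PGCs, were among the 10 most abundant genes called in c-Kit+ cells, at 1433 and 1417 TPM and 729 and 693 TPM. *Tfap2c*, which specifies PGCs together with *Prdm1* and *Prdm14* and serves in trophoblast as well, overlapped between the populations, at 193 and 181 TPM and 182 and 166 TPM, with a log2 fold change of 0.23 and a standard error of 0.102. *Prdm14* had 0.82 and 0.38 TPM in c-Kit+ cells and 0 and 0 TPM in c-Kit- cells and was not tested. *Rhox6* and *Rhox9*, homeobox genes of the X chromosome that placenta and germ cells both express, were lower in c-Kit+ cells. *Rhox9* had 7.61 and 2.36 TPM in c-Kit+ cells and 50.05 and 24.7 TPM in c-Kit- cells, and *Rhox6* shares 11.7% of its words with it. *Prdm1* had a log2 fold change of 3.95 without c-Kit- replicate 1. *Prdm1* had a log2 fold change of 6.62 without c-Kit- replicate 2. *Rhox9* had a log2 fold change of -3.77 without c-Kit+ replicate 1. *Rhox6* had a log2 fold change of -2.89 and was not called without c-Kit+ replicate 2. Genes of later germ cells were mostly silent: 2 of 24 listed passed the filter, and 1, *Dmrt1*, a regulator of male germ cells, was called, with 19.9 and 16.4 TPM against 0.46 and 0 TPM. *Ddx4*, *Dazl*, *Sycp3* and *Stra8* had at most 3.84 TPM in any library.

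Several genes of the primitive streak were also higher in c-Kit+ cells. *T*, the brachyury factor of streak and mesoderm, had 151 and 187 TPM in c-Kit+ cells and 0 and 0.53 TPM in c-Kit- cells, at least 76-fold apart. *Evx1*, a homeobox gene of the posterior streak, had 57.9 and 71.9 TPM against 2.21 and 9.31 TPM, and *Eomes*, a T-box factor of both streak and trophoblast stem cells, had 19.6 and 17.4 TPM against 1.92 and 1.8 TPM. In all, 7 of 16 streak genes were tested and 4 were called, all in this direction. At least *T* and *Eomes* fell under a minimum of 10 counts per library and passed the filter on low counts through the c-Kit+ libraries. Such genes could hardly be called in the other direction. *Cdx2*, a factor of trophectoderm and of the posterior body, was higher in c-Kit+ cells too, with 51.5 and 55.7 TPM against 26.4 and 14.4 TPM (log2 1.53, standard error 0.263). The sequel of the streak was scarcely measured: *Mesp1*, *Msgn1* and *Hand2* had no count in any library, and *Tbx6*, *Kdr*, *Foxa2* and *Mixl1* did not pass the filter. Of 29 caudal and mesodermal genes 12 were tested, and 3 were called higher in each population. Among 39 HOX genes 4 were tested, and *Hoxd9* was the highest, at 57.6 and 57.2 TPM in c-Kit+ cells and 12.5 and 11.7 TPM in c-Kit- cells. *Hoxd8* and *Hoxc9* were called as well, at between 2.25 and 10.2 TPM. *Evx1* (3.04), *Hoxd8* (1.31, not called) and *Hoxc9* (1.47, not called) had these log2 fold changes without c-Kit- replicate 1. *Evx1* (4.91) and *Hoxc9* (1.75, not called) had these log2 fold changes without c-Kit- replicate 2. *Hoxd8* (1.81, not called) and *Hoxc9* (1.52, not called) had these log2 fold changes without c-Kit+ replicate 1. *Hoxd8* (1.5, not called) and *Hoxc9* (1.68, not called) had these log2 fold changes without c-Kit+ replicate 2. *Hoxd8* (log2 1.7) and *Hoxc9* (log2 1.64) were not called with DESeq2.

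Feedback genes of the FGF and ERK pathway were mostly higher in c-Kit+ cells. Fibroblast growth factors activate ERK kinases, and ERK induces ETS factors of the PEA3 group, Sprouty and Spred proteins and dual-specificity phosphatases, which damp the same pathway. All 18 genes of this list were tested, and the median log2 fold change was 2.38. Of them 13 (72.2%) were called higher in c-Kit+ and 2 (11.1%) in c-Kit- cells, against 9.98% and 12.9% over all genes. This list, like the others, was chosen with earlier results of these data known, so the shares are a description and no test. *Spry4* had 71.6 and 80.8 TPM in c-Kit+ cells and 2.97 and 2.78 TPM in c-Kit- cells, a 28.4-fold difference. *Spry2* followed with 81.4 and 82.8 TPM against 4.11 and 3.12 TPM. *Dusp6*, the phosphatase that inactivates ERK in the cytoplasm, had 146 and 129 TPM against 12.9 and 17.4 TPM (log2 3.29, standard error 0.163, edgeR adjusted p = 1.23e-06). All 3 PEA3 factors were called: *Etv5* had 197 and 197 TPM against 6.88 and 7.37 TPM, *Etv4* 143 and 185 TPM against 46.1 and 39.4 TPM, and *Etv1* 10.7 and 6.67 TPM against 0 and 3.0 TPM. *Etv5* shares 18.7% of its sequence words with *Gm4798*. *Egr1*, an immediate target of ERK, had 422 and 373 TPM against 50.4 and 57.3 TPM. The 2 genes in the other direction were *Fosl1* and *Myc*, and *Fosl1* shares 50.2% of its words with *Ccdc85b*. *Dusp9*, a phosphatase of ERK that is not on this list, was also called higher in c-Kit- cells (log2 -2.09). No ligand of the list passed the filter: the 10 FGF genes together had 16.0 and 18.4 TPM in c-Kit+ cells and 11.7 and 9.3 TPM in c-Kit- cells, and bFGF was a component of the medium. *Fgfr1*, the main receptor, was not called and had a log2 fold change of 0.12 with a standard error of 0.0969. Other receptor tyrosine kinases were called: *Egfr* had 1.56 and 0.47 TPM in c-Kit+ cells and 12.6 and 8.48 TPM in c-Kit- cells, *Met* 17.8 and 15 TPM and 45.2 and 49.9 TPM, and *Pdgfrb* 4.6 and 4.45 TPM and 24 and 23.5 TPM, while *Erbb3* was higher in c-Kit+ cells, at 42.1 and 37.9 TPM against 13.9 and 17.9 TPM. *Kitl*, the ligand of c-Kit, overlapped between the populations (log2 0.13, standard error 0.579). *Egfr* had a log2 fold change of -4.8 without c-Kit+ replicate 2.

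**Figure D3:**
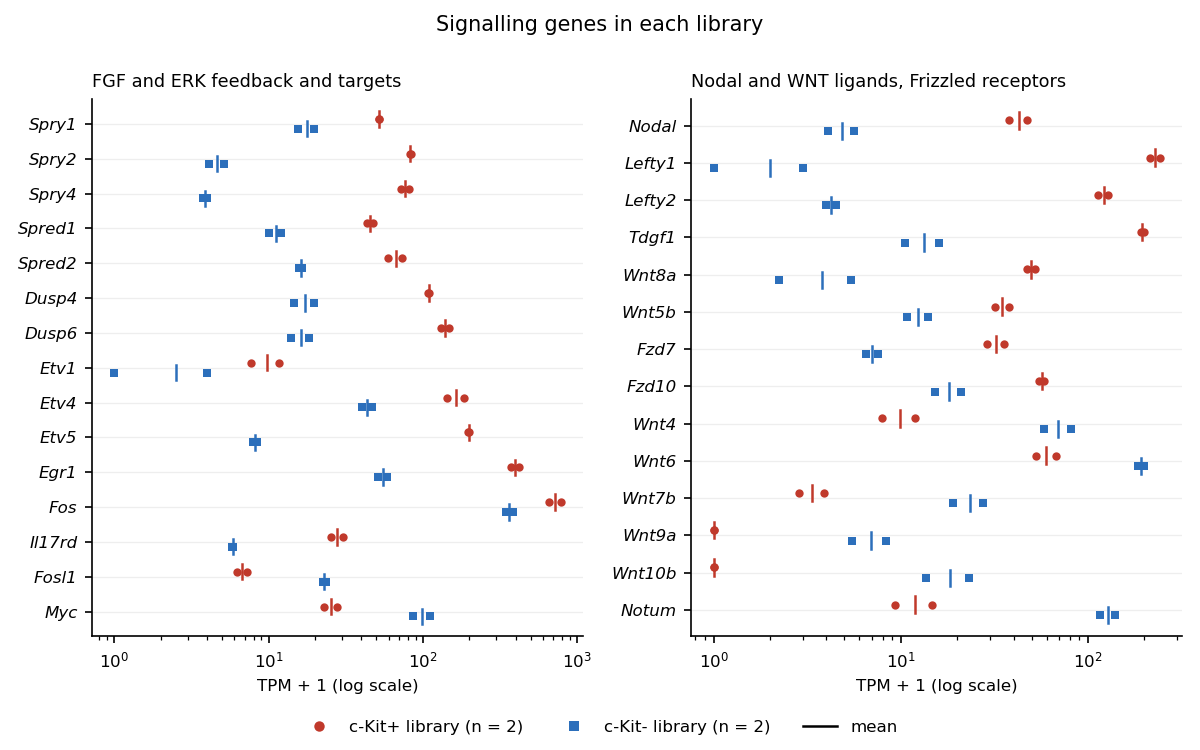
TPM + 1 on a log axis of 29 signalling genes in each of the 4 libraries, with circles for c-Kit+, squares for c-Kit- and lines for the mean of 2. On the left 13 FGF and ERK genes lie higher in c-Kit+ cells, and *Fosl1* and *Myc* lie lower. On the right the Nodal genes, *Wnt8a*, *Wnt5b* and the Frizzled receptors lie higher in c-Kit+ cells, and *Wnt4*, *Wnt6*, *Wnt7b*, *Wnt9a*, *Wnt10b* and *Notum* lie higher in c-Kit- cells.

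*Nodal*, its co-receptor gene and the Lefty genes were higher in c-Kit+ cells, while 4 members of the Nodal and TGF-beta list were called in the other direction. Nodal binds activin receptors with the co-receptor CRIPTO (*Tdgf1*), and its targets include the Lefty proteins, which inhibit it. *Nodal* had 37 and 46.1 TPM in c-Kit+ cells and 4.6 and 3.11 TPM in c-Kit- cells, and *Gdf3*, a related ligand, 51.9 and 38.9 TPM and 0 and 0 TPM. *Tdgf1* had 197 and 191 TPM against 15 and 9.51 TPM. The inhibitors had 240.3 and 213 TPM of *Lefty1* against 2.01 and 0 TPM and 128 and 113 TPM of *Lefty2* against 3.01 and 3.49 TPM, and the Lefty genes share 11.7% and 7.77% of their words with each other. *Foxh1*, the nuclear partner of SMAD2, and *Pcsk6*, a convertase that activates the ligand, were called in the same direction. In the other direction lay *Tgfb1*, at 20.5 and 25.7 TPM in c-Kit+ cells against 115 and 103 TPM, with *Tgfb3*, *Furin* and *Smad3*. *Smad3* had a log2 fold change of -0.97 and was not called without c-Kit- replicate 1. *Tgfb3* had a log2 fold change of -2.94 without c-Kit+ replicate 1. *Tgfb3* had a log2 fold change of -1.57 and was not called without c-Kit+ replicate 2. *Smad3* (log2 -0.92) was not called with the GC content offset. Of 20 members tested, 8 (40%) were called higher in c-Kit+ and 4 (20%) in c-Kit- cells, against 9.98% and 12.9% over all genes.

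In WNT signalling, the ligands called were more often higher in c-Kit- cells, and the receptors and mediators called more often higher in c-Kit+ cells. Among 12 ligands tested, 7 (58.3%) were called higher in c-Kit- and 3 (25%) in c-Kit+ cells. Among 23 receptors and mediators 6 (26.1%) were called higher in c-Kit+ and 1 (4.35%) in c-Kit- cells, and 16 were not called. The shares over all genes were 9.98% higher in c-Kit+ and 12.9% higher in c-Kit- cells. *Wnt6* was the most abundant ligand, with 66.3 and 51.4 TPM in c-Kit+ cells and 197 and 184 TPM in c-Kit- cells, followed by *Wnt4* with 10.9 and 6.91 TPM and 79.9 and 57.1 TPM. *Wnt10b*, at 22.1 and 12.7 TPM, and *Wnt9a*, at 7.32 and 4.51 TPM in c-Kit- cells, had no count in c-Kit+ cells. *Wnt7b*, which the chorion needs to fuse with the allantois, had 1.86 and 2.88 TPM in c-Kit+ cells against 26.6 and 18.1 TPM in c-Kit- cells. The most abundant ligand called higher in c-Kit+ cells was *Wnt8a*, at 50.8 and 46.1 TPM against 1.24 and 4.39 TPM. *Fzd7* and *Fzd10*, Frizzled receptors, had 27.8 and 34.5 TPM and 53.8 and 57.1 TPM in c-Kit+ cells and 5.55 and 6.56 TPM and 14.3 and 20.1 TPM in c-Kit- cells. *Ror2*, a receptor for WNT5A, had 50.7 and 44.4 TPM against 14.2 and 19.7 TPM. Some secreted WNT inhibitors were lower in c-Kit+ cells, among them the deacylase *Notum* (8.31 and 13.7 TPM against 114 and 139 TPM in c-Kit- cells), *Dkk1* (5.65 and 5.25 TPM against 26.3 and 23.1 TPM) and *Sfrp1* (5.47 and 2.65 TPM against 28.6 and 17.8 TPM). *Axin2*, the common readout of β-catenin, was not called, at a log2 fold change of 0.69. With the GC content offset, the count of list members called higher in c-Kit- cells fell from 14 to 9. The members *Wnt7a*, *Wnt10a* and *Fzd1* are included in these counts. *Wnt8a* (3.56), *Wnt7a* (-1.79, not called) and *Wnt10a* (-0.96, not called) had these log2 fold changes without c-Kit- replicate 1. *Wnt8a* (5.32) and *Wnt7a* (-1.42, not called) had these log2 fold changes without c-Kit- replicate 2. *Sfrp1* (-2.98), *Wnt7a* (-1.4, not called), *Wnt10a* (-1.37, not called) and *Fzd1* (1.28, not called) had these log2 fold changes without c-Kit+ replicate 1. *Wnt7a* (-1.89, not called), *Wnt10a* (-2.12, not called) and *Fzd1* (1.2, not called) had these log2 fold changes without c-Kit+ replicate 2. *Wnt7a* (log2 -1.63), *Wnt10a* (log2 -1.7) and *Fzd1* (log2 1.27) were not called with DESeq2. *Wnt7a* (log2 -1.33) and *Wnt10a* (log2 -1.33) were not called with the GC content offset.

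BMP signalling genes were called in both directions, 15.4% of those tested higher in c-Kit+ and 11.5% higher in c-Kit- cells. Over all genes these shares were 9.98% and 12.9%. BMP4 was present in the medium of both populations. Of 26 members tested, 4 were called higher in c-Kit+ and 3 in c-Kit- cells, and without c-Kit- replicate 2 or without c-Kit+ replicate 2 the 4 were 2. The 4, *Id4*, *Chrd*, *Fst* and *Msx1*, lie among the 13 targets and inhibitors tested, of which 1, *Gata2*, was called higher in c-Kit- cells (median 0.52). Of the 4 ligands and 9 receptors and SMAD proteins tested, *Bmp8a* and *Smad9* were called higher in c-Kit- cells. The canonical targets *Id1* and *Id2*, inhibitors of helix-loop-helix factors, had log2 fold changes of 0.18 and 0.09 with standard errors of 0.132 and 0.114, and *Id3* had 0.74. *Msx1*, a target, had 93.5 and 109 TPM in c-Kit+ cells against 33.3 and 27.7 TPM. The receptors *Bmpr1a* and *Bmpr2* had 0.61 and -0.45, and neither was called. For LIF signalling, *Lifr*, *Il6st* and *Stat3* had log2 fold changes of 0.22, -0.08 and -0.03. Of 13 members tested, 1 (7.69%) was called higher in c-Kit+ and 2 (15.4%) in c-Kit- cells, against 9.98% and 12.9% over all genes. The 1 was *Socs2*, a suppressor of cytokine signalling, at 115 and 108 TPM in c-Kit+ cells against 16.9 and 23.4 TPM. *Chrd* (1.34 to 1.71) and *Smad9* (-2.39 to -1.76) were called in no fit that left out 1 of the 4 libraries. *Fst* had a log2 fold change of 1.35 and was not called without c-Kit- replicate 2. *Fst* had a log2 fold change of 0.83 and was not called without c-Kit+ replicate 2. *Chrd* (log2 1.58), *Fst* (log2 1.66) and *Smad9* (log2 -2.08) were not called with DESeq2. *Id3* (log2 1.03) was called with the GC content offset. *Chrd* (log2 1.56) was not called with the replicate block. *Chrd* (log2 1.53) and *Smad9* (log2 -2.05) were not called with no filter on low counts.

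Among metabolic genes, several of threonine and glycine use were higher in c-Kit+ cells. Mouse pluripotent cells degrade threonine through threonine dehydrogenase (*Tdh*), and the glycine cleavage system, in which *Gldc* is the decarboxylase, passes 1-carbon units to folate. *Tdh* (chromosome 14, 63492347 to 63509092 in GRCm38) had 75.8 and 90.1 TPM in c-Kit+ cells and 0 and 0 TPM in c-Kit- cells, at least 48.5-fold apart. *Gldc* had 131 and 145 TPM against 24.4 and 23.9 TPM (log2 2.66, standard error 0.131, edgeR adjusted p = 1.23e-06). *Cbs*, which begins transsulfuration, had 30.8 and 34.9 TPM against 4.79 and 8.12 TPM, and *Mthfd1*, a folate enzyme, 227 and 281 TPM against 117 and 104 TPM. All 19 enzymes of the list were tested and 7 were called, all higher in c-Kit+ cells, with a median of 0.39. *Amt* and *Gcsh*, also of the glycine cleavage system, had log2 fold changes of 1.05 and 1.03. The serine synthesis enzymes *Phgdh*, *Psat1* and *Psph* were not called, at 0.29, -0.47 and -0.45, and the mitochondrial *Mthfd2* had -0.9. Of 13 genes of iron, haem and lipid handling tested, 4 were called in each direction (median -0.36). Among lipid carriers, *Apoe* had 824 and 1005 TPM in c-Kit+ cells and 157 and 143 TPM in c-Kit- cells, and *Fabp5* 535 and 497 TPM and 158 and 168 TPM, while *Lpl*, *Lrp2* and *Fabp3* were higher in c-Kit- cells. *Amt* (0.73, not called) and *Gcsh* (0.8, not called) had these log2 fold changes without c-Kit- replicate 2. *Amt* had a log2 fold change of 0.95 and was not called without c-Kit+ replicate 1. *Gcsh* had a log2 fold change of 0.88 and was not called without c-Kit+ replicate 2. *Amt* (log2 1.04) was not called with DESeq2. *Gcsh* (log2 0.97) was not called with the GC content offset. *Mthfd2* (log2 -1.01) was called without c-Kit+ replicate 1.

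Few genes of the respiratory chain were called. Of 72 nuclear genes of the respiratory chain, all of them tested, 1 was called, *Ndufab1*, with 179.5 and 211 TPM in c-Kit+ cells and 88.5 and 74.2 TPM in c-Kit- cells, and the median log2 fold change was 0.11. Without c-Kit+ replicate 1 the 1 was 2. Of the 13 protein genes of the mitochondrial genome 0 were called by edgeR (12 had an unadjusted p under 0.05, and 0 were called by DESeq2), but all had fold changes above 0 with a median of 0.67, and 5 were called without c-Kit- replicate 2. With the GC content offset the direction did not hold, as 7 of the 13 lay below 0 with a median of -0.01. The summed TPM of these genes was 70680 and 78161 in c-Kit+ cells and 41719 and 62629 in c-Kit- cells, so the c-Kit- libraries differed among themselves. Of 23 glycolytic genes, 3 (13%) were called higher in c-Kit+ and 4 (17.4%) in c-Kit- cells, against 9.98% and 12.9% over all genes, and the summed TPM ranged from 13336 to 13942 over the 4 libraries. Within that sum the transporters differed in opposite directions. *Slc2a3*, a high-affinity glucose transporter, had 529.98 and 535 TPM in c-Kit+ cells and 179.7 and 187 TPM in c-Kit- cells, while *Slc16a3*, a lactate exporter, had 39.2 and 49.5 TPM and 119 and 112 TPM. *Pfkp* and *Hk1* were called higher in c-Kit- cells, and *Pdk1* and *Ldhb* higher in c-Kit+ cells. In cholesterol synthesis 19 of 20 genes had fold changes below 0 (median -0.58), and 17 with the GC offset. The 2 genes called were *Mvd* and *Pmvk*. *Slc16a3* (log2 -0.87) and *Pmvk* (log2 -0.82) were not called with the GC content offset.

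Many trophoblast transcription factors were higher in c-Kit- cells. Of 37 listed factors 31 were tested, 15 were called higher in c-Kit- and 4 in c-Kit+ cells, with a median of -0.95. *Gata2* differed 11.8-fold (log2 -3.52, standard error 0.141, edgeR adjusted p = 5.82e-07). *Cebpa* and *Cebpb*, factors the placenta needs for its development, had 78.9 and 61.9 TPM and 374 and 361 TPM in c-Kit- cells against 6.6 and 4.1 TPM and 52.3 and 47.3 TPM. *Hand1*, needed for giant cells, had 553 and 435 TPM against 103 and 75.2 TPM in c-Kit+ cells, and *Ascl2*, a factor of the spongiotrophoblast, 251 and 196 TPM against 51.8 and 35.9 TPM. *Esx1*, an X-linked homeobox gene of the placental labyrinth, had 433 and 378 TPM against 97.9 and 56.5 TPM. *Pparg*, a nuclear receptor of the labyrinth, had 19.7 and 18.9 TPM against 1.35 and 2.5 TPM, and *Vgll1*, a co-factor of TEAD proteins, 31.4 and 29 TPM against 0 and 0.83 TPM, at least 20.3-fold apart. *Tead4*, *Tead3*, *Ets2*, *Dlx3* and *Grhl1* were called in the same direction. Of the early trophoblast factors, *Cdx2* and *Eomes* were higher in c-Kit+ cells, *Elf5* and *Gcm1* did not pass the filter, and *Gata3* (log2 -0.96, standard error 0.39) and *Tfap2a* (1.4, standard error 0.581) were not called, with 8.54 and 15 TPM of *Gata3* in c-Kit- cells against 6.33 and 5.97 TPM. *Pparg* (-3.05), *Tead4* (-3.49) and *Ets2* (-2.74) had these log2 fold changes without c-Kit+ replicate 1. *Pparg* (-4.85) and *Tead4* (-1.85) had these log2 fold changes without c-Kit+ replicate 2. *Tfap2a* (log2 1.35) was called with the replicate block and GC content offset. *Gata3* (log2 -1.32) was called without c-Kit- replicate 1. *Tfap2a* (log2 1.91) was called without c-Kit+ replicate 2.

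Placental growth genes were among the abundant messages of c-Kit- cells. *Igf2*, the imprinted fetal growth factor, was the highest gene of c-Kit- cells at 12049 and 12253 TPM and had 2284 and 1590.5 TPM in c-Kit+ cells. *Phlda2*, an imprinted gene that restrains placental growth, had 10409 and 9839 TPM against 2426 and 2087 TPM. *Peg10*, a retrotransposon-derived imprinted gene that the placenta requires, had 2035 and 1988 TPM against 693 and 693 TPM. *H19*, the noncoding neighbour of *Igf2*, had 278 and 90.7 TPM against 30.1 and 10.8 TPM, a log2 fold change of -3.32. *H19* had a log2 fold change of -2.23 without c-Kit- replicate 1. *H19* had a log2 fold change of -3.98 without c-Kit- replicate 2. *H19* had a log2 fold change of -4.23 without c-Kit+ replicate 1. Of 14 placental genes tested among 29 listed, 10 were called higher in c-Kit- and 2 in c-Kit+ cells, and the summed TPM of the list was 25668 and 24958 in c-Kit- cells against 6424 and 5336 in c-Kit+ cells. Products of differentiated placental layers were not seen at this depth: *Prl3d1*, *Prl3b1*, *Prl2c2*, *Tpbpa*, *Syna* and *Synb* had no count in any library, which allows up to 3 counts, between 1.63 and 1.74 CPM in a library. These floors cover counting error only.

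Imprinted genes as a class did not share a direction. Of 30 tested among 44 listed, 7 were called higher in each population, with a median of 0.13. Those higher in c-Kit- cells were *Igf2*, *H19*, *Phlda2*, *Slc22a18*, *Osbpl5* and *Ascl2* of the distal chromosome 7 cluster and *Peg10* of chromosome 6. Those higher in c-Kit+ cells included *Peg3*, at 211 and 202 TPM against 60.1 and 99.2 TPM in c-Kit- cells, and its neighbour *Usp29*, *Snrpn* and *Magel2* of the Prader-Willi region, and *Meg3*, at 190.1 and 162 TPM against 69.9 and 39.5 TPM, with *Rian* of the same cluster. *Snrpn* had 222 and 230.3 TPM against 60.1 and 66.3 TPM and shares 18.9% of its words with another gene. *Igf2r*, *Grb10*, *Gnas*, *Mest* and *Cd81* had log2 fold changes between -0.36 and 0.42 and were not called. *Usp29* (2.95) and *Magel2* (3.57) had these log2 fold changes without c-Kit- replicate 1. *Usp29* (1.44, not called) and *Magel2* (1.84) had these log2 fold changes without c-Kit- replicate 2. *Osbpl5* (-2.84), *Usp29* (2.14, not called) and *Rian* (0.99, not called) had these log2 fold changes without c-Kit+ replicate 1. *Slc22a18* (-3.18) and *Usp29* (1.85, not called) had these log2 fold changes without c-Kit+ replicate 2. *Usp29* (log2 2.05) was not called with DESeq2. *Rian* (log2 0.51) was not called with the GC content offset.

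**Figure D4:**
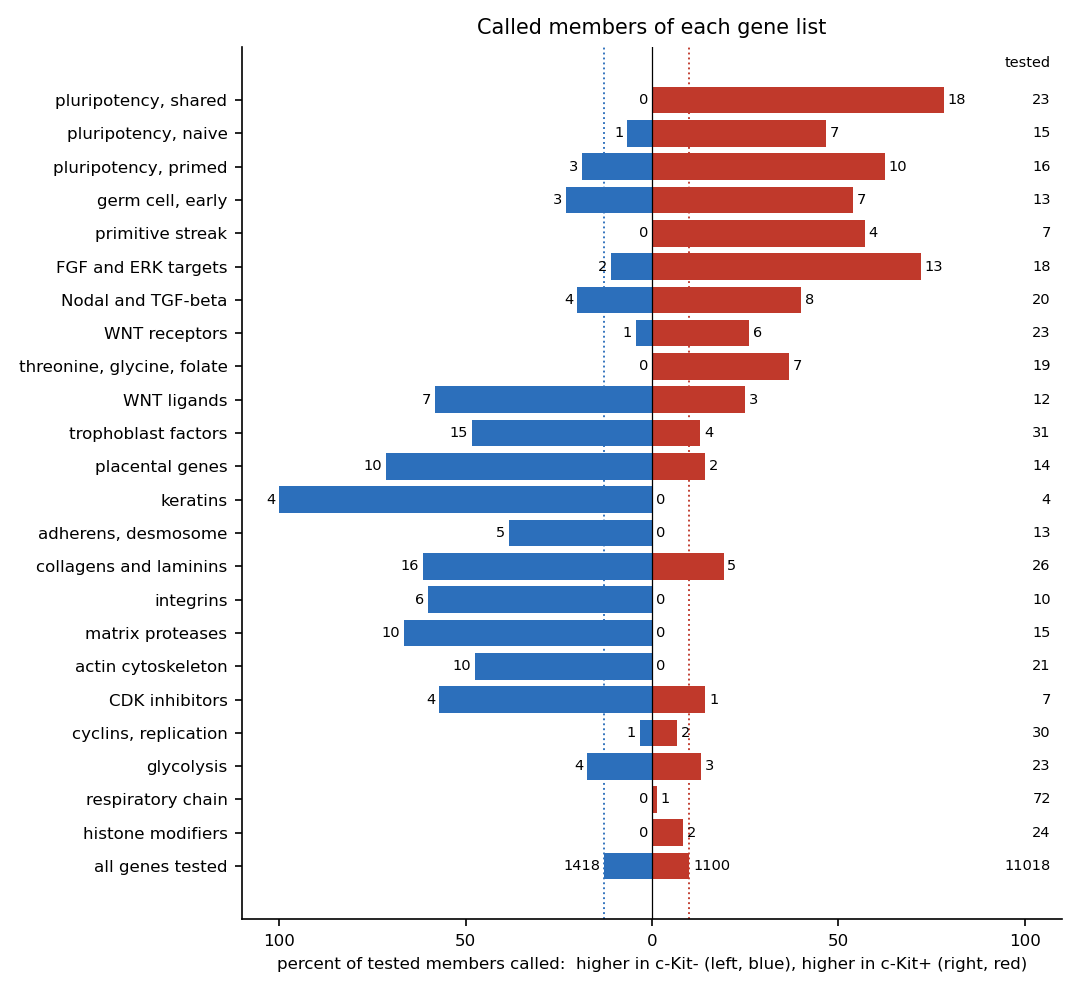
Percent of the tested members of each list that were called, with bars to the right for genes higher in c-Kit+ cells and to the left for genes higher in c-Kit- cells. Numbers at the bars are genes called, the column at the right gives genes tested, and dotted lines mark the shares over all 11018 genes, 9.98% and 12.9%. The pluripotency and FGF and ERK lists extend right, the keratin, matrix and cytoskeleton lists extend left, and the respiratory chain has 1 called gene of 72.

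Epithelial cytoskeleton and adhesion set c-Kit- cells apart. All 4 keratins of the epithelial list that were tested were called higher in c-Kit- cells. *Krt8* and *Krt18*, the paired keratins of simple epithelia, had 1892 and 1740.1 TPM and 1758 and 1606 TPM in c-Kit- cells and 401 and 306 TPM and 317 and 243 TPM in c-Kit+ cells, and *Krt8* shares 22% of its words with *Krt8-ps*. *Krt7*, a keratin of trophoblast and other ducts and linings, had 51.7 and 36.3 TPM in c-Kit- cells and stood at the floor in c-Kit+ cells, with 0.29 and 0.47 TPM, at least 54.3-fold apart. *Krt19* had 102 and 52.3 TPM against 9.08 and 6.61 TPM, and *Krt5*, a basal keratin of another list, 63.5 and 32.1 TPM against 3.87 and 1.8 TPM. Of 13 genes of adherens junctions and desmosomes tested, 5 were called, all higher in c-Kit- cells, and 5 had fold changes above 0. *Pkp3* had 128 and 100.5 TPM against 10.2 and 10.03 TPM, *Jup* 250.3 and 193 TPM against 75.5 and 59.5 TPM, and *Dsp* 127 and 162 TPM against 48.6 and 47 TPM. Of 12 tight junction genes tested 9 were not called, among them *Tjp1* (-0.42) and *Ocln* (-0.06). *Cldn4* had 229 and 208 TPM in c-Kit- cells against 52.3 and 36 TPM, whereas *Cldn6*, a claudin of pluripotent cells, had 153 and 138 TPM against 300.3 and 295 TPM. Calcium-binding partners *Anxa2* and *S100a6* were among the larger differences, at 728 and 672 TPM and 717 and 656 TPM against 57.1 and 31.2 TPM and 79.5 and 80.5 TPM. *Krt5* had a log2 fold change of -4.56 without c-Kit+ replicate 1.

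Promoters of 3 of these genes are shown because short AP-2 or AP-1 motifs, bound by factor families that both populations express, lie in them. They are written as above, with GCCNNNGGC (AP-2, the same on both strands apart from N) and TGANTCA (AP-1) in capitals.
*Krt7* promoter, chr15:101412153-101412402, plus strand: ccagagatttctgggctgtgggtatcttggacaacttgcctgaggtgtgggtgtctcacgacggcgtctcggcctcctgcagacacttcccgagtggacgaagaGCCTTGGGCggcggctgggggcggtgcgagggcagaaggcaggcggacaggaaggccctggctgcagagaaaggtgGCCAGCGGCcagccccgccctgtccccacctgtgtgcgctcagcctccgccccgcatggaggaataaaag
*Krt18* promoter, chr15:102027966-102028215, plus strand: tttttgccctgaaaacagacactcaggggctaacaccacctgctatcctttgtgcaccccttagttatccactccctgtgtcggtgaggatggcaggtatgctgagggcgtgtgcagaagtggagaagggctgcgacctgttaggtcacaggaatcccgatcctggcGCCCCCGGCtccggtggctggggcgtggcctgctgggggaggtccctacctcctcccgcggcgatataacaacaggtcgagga
*Cldn4* promoter, chr5:134946935-134947184, minus strand: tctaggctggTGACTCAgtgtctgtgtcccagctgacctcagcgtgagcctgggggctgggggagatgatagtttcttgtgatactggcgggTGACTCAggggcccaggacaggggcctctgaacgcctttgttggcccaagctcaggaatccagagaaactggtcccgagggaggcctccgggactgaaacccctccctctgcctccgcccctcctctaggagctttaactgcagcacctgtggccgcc
*Krt7* held 2 AP-2 matches, which begin 146 and 70 bases before the start, *Krt18* held 1, at 83 bases, and *Cldn4* held 2 AP-1 matches, at 240 and 158 bases. The AP-2 letters occurred in 26.7% of the promoters of genes called higher in c-Kit- cells, 20.9% of those higher in c-Kit+ cells, 21.8% of those of tested genes and 13.6% of all promoters. For the AP-1 letters these shares were 4.98%, 3.1%, 3.62% and 6.87%. Of 13 motifs searched, TAATTA, the core of homeodomain sites, differed most by ratio, with 3.59% in genes higher in c-Kit+ cells and 0.543% in genes higher in c-Kit- cells against 1.95% in tested genes. The ETS letters CCGGAAG were less frequent in both called sets (6.82% and 8.79%) than in tested genes (15.1%). These shares are descriptions without a test.

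Genes of the extracellular matrix were mostly higher in c-Kit- cells. Of 51 tested genes for extracellular matrix and its receptors, 32 were called higher in c-Kit- and 5 in c-Kit+ cells (median -1.37), and the 5 were 3 without c-Kit+ replicate 2. *Col4a1* and *Col4a2*, the network collagens of every basement membrane, had 139.6 and 98.6 TPM and 109 and 99 TPM in c-Kit- cells against 18.9 and 6.82 TPM and 8.33 and 7.4 TPM. *Hspg2*, the proteoglycan perlecan, had 417 and 354 TPM against 125 and 109 TPM. Of 10 integrin genes tested 6 were called and all were higher in c-Kit- cells, such as *Itga5*, the fibronectin receptor subunit, at 126 and 109.9 TPM against 25.6 and 26.9 TPM. *Itga6* and *Itgb3*, integrins also used as surface markers of stem and germ cells, were lower in c-Kit+ cells, at 62.9 and 48.7 TPM and 6.98 and 4.32 TPM against 161 and 171 TPM and 22.6 and 21.6 TPM. Matrix proteases and their control had 10 of 15 genes called, all higher in c-Kit- cells. *Mmp15* had 125 and 94.4 TPM in c-Kit- cells against 10.6 and 6.38 TPM in c-Kit+ cells, *Mmp9* 78.4 and 60.03 TPM against 13.2 and 11.8 TPM, and *Plaur*, the urokinase receptor, 159 and 133 TPM against 18.8 and 11.8 TPM. The exceptions were *Fn1*, fibronectin, at 283 and 294 TPM in c-Kit+ cells against 140.3 and 126 TPM, with *Nid2*, *Col4a5*, *Col4a6* and *Lama1*. Actin-associated genes showed the same direction, with 10 of 21 called and all higher in c-Kit- cells. *Lmna*, the nuclear lamin A, had 279 and 224 TPM in c-Kit- cells against 37.3 and 29.1 TPM in c-Kit+ cells and *Tagln2* 888 and 743 TPM against 199 and 197 TPM. Among targets of the YAP co-activator, *Ankrd1* had 11.6 and 8.67 TPM against 0 and 0.56 TPM, but *Ccn1* and *Ccn2* were not called (-0.14 and 1.22). *Wwtr1*, the gene of the YAP relative TAZ, had 68.5 and 68.3 TPM against 13.5 and 12.9 TPM and *Yap1* a log2 fold change of 0.84, not called. *Col4a6* had a log2 fold change of 1.71 without c-Kit- replicate 1. *Col4a6* (3.56) and *Lama1* (1.2, not called) had these log2 fold changes without c-Kit- replicate 2. *Plaur* had a log2 fold change of -3.91 without c-Kit+ replicate 1. *Col4a5* (1.48, not called) and *Lama1* (0.84, not called) had these log2 fold changes without c-Kit+ replicate 2. *Lama1* (log2 1.47) was not called with DESeq2. *Ccn2* (log2 1.22) was called with the GC content offset. *Ccn2* (log2 1.3) was called with the replicate block. *Ccn2* (log2 2.33) was called without c-Kit- replicate 1.

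Few proliferation genes were called, while several of their inhibitors were higher in c-Kit- cells. Of 30 cyclins, kinases and replication genes 2 (6.67%) were called higher in c-Kit+ and 1 (3.33%) in c-Kit- cells. Over all genes these shares were 9.98% and 12.9%. *Ccnb1*, *Cdk1*, *Plk1* and *Mki67* had log2 fold changes of 0.42, 0.17, -0.01 and 0.63. Of 7 inhibitors tested, 4 were called higher in c-Kit- and 1 in c-Kit+ cells, with a median of -1.27. *Cdkn2a*, the locus of the p16 and ARF proteins, had 152 and 114 TPM in c-Kit- cells and 11.2 and 3.68 TPM in c-Kit+ cells (log2 -4.03). Its neighbour *Cdkn2b* had 71.4 and 61.2 TPM against 3.88 and 5.05 TPM, and *Cdkn1a*, the p53 target p21, 144 and 134 TPM against 59.6 and 42.5 TPM. *Trp53* itself was higher in c-Kit+ cells, at 515 and 554 TPM against 214 and 197 TPM, whereas of its targets *Perp*, *Phlda3* and *Bbc3* were higher in c-Kit- cells. Of 19 genes of p53 and apoptosis tested, 1 was called higher in c-Kit+ and 5 in c-Kit- cells. *Trib3* and *Nupr1*, stress genes downstream of ATF4, had 44.4 and 40.8 TPM and 51.7 and 58.5 TPM in c-Kit- cells against 4.72 and 8.1 TPM and 9.38 and 3.86 TPM in c-Kit+ cells, while *Atf4* had a log2 fold change of -0.02 and *Ddit3* of -0.13. Without c-Kit- replicate 2, 6 cell cycle genes (inhibitors included) in place of 3 were called higher in c-Kit+ cells. *Cdkn2a* (-5.07) and *Nupr1* (-4.22) had these log2 fold changes without c-Kit+ replicate 1. *Cdkn2a* had a log2 fold change of -3.44 without c-Kit+ replicate 2. *Bbc3* (log2 -0.91) was not called with the GC content offset. *Mki67* (log2 1.45) was called without c-Kit- replicate 2.

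Genes of retinoic acid handling and of amino acid transport also divided. *Crabp1*, a cytoplasmic retinoic acid carrier, had 175 and 197 TPM in c-Kit- cells against 90.2 and 73.5 TPM, and *Aldh1a3*, which makes retinoic acid, 8.88 and 6.27 TPM against 2.72 and 0 TPM. *Cyp26b1*, which degrades it, was also higher in c-Kit- cells, at 12.7 and 6.54 TPM against 0.76 and 0.68 TPM. Of 11 tested, 5 were called higher in c-Kit- and 1 in c-Kit+ cells. Among 14 amino acid transporters 4 were called in each direction. *Slc7a3*, a carrier of cationic amino acids, had 48.7 and 56.6 TPM in c-Kit+ cells against 9.86 and 12.6 TPM, while its relative *Slc7a1* had 13.7 and 6.82 TPM against 38.9 and 28.2 TPM. *Crabp1* had a log2 fold change of -0.99 and was not called without c-Kit- replicate 2. *Slc7a1* had a log2 fold change of -2.15 without c-Kit+ replicate 1. *Crabp1* had a log2 fold change of -0.94 and was not called without c-Kit+ replicate 2. *Crabp1* (log2 -0.66) was not called with the GC content offset.

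Genes of antigen presentation were higher in c-Kit- cells. *H2-K1* and *H2-D1*, the class I heavy chains, had 327 and 219 TPM and 151 and 145 TPM in c-Kit- cells against 69 and 51.9 TPM and 28.9 and 21 TPM in c-Kit+ cells, and *B2m*, their light chain, had 156 and 154 TPM against 56.1 and 58.3 TPM. *Bst2* and *Irf1* differed in the other direction, at 154 and 153 TPM and 38.3 and 27.2 TPM in c-Kit+ cells against 27.5 and 17.1 TPM and 12.5 and 9.95 TPM. Of 9 members tested, 5 were called higher in c-Kit- and 2 in c-Kit+ cells.

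Of 38 genes of DNA methylation and chromatin tested, 3 (7.89%) were called higher in c-Kit+ and 4 (10.5%) in c-Kit- cells, shares close to those over all genes. The 4, *Dnmt3a*, *Tet3*, *Mbd2* and *Zfp57*, are among the 14 genes of DNA methylation, and without c-Kit+ replicate 1 they were 2. *Tet1*, which oxidises 5-methylcytosine, had 28.1 and 24.1 TPM in c-Kit+ cells against 3.92 and 8.5 TPM, and *Tet3* had 6.43 and 4.91 TPM against 15.6 and 10.6 TPM. Among 24 histone modifiers *Suz12* and *Mtf2* of Polycomb complex 2 were called, with 139 and 144 TPM of *Suz12* against 29 and 52.4 TPM. Neither target of the inhibitors was called, as *Ezh2* had a log2 fold change of 0.84 and *Dot1l* one of 0.04. The X chromosome had 64 of 389 tested genes (16.5%) called higher in c-Kit+ cells and 44 (11.3%) higher in c-Kit- cells. On the autosomes these shares were 9.76% and 13%. The median log2 fold change was 0.19 for the X chromosome and 0.02 for the autosomes. *Xist*, the noncoding RNA that coats the inactive X chromosome, had 52.2 and 59.5 TPM in c-Kit+ cells and 37.2 and 74.3 TPM in c-Kit- cells, with overlap, and was not called. *Tet3* (-0.96, not called) and *Mtf2* (0.84, not called) had these log2 fold changes without c-Kit- replicate 1. *Suz12* had a log2 fold change of 2.62 without c-Kit- replicate 2. *Tet3* (log2 -0.998), *Mbd2* (log2 -0.94) and *Mtf2* (log2 0.61) were not called with the GC content offset. *Xist* (log2 1.21) was called without c-Kit- replicate 2.

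Of 19 vascular and migration factors tested, 6 were called higher in c-Kit+ and 3, *Vegfa*, *Sema3c* and *Plxnd1*, in c-Kit- cells. *Cxcl12* and its receptor *Cxcr4*, a pair that guides PGC migration, were both higher in c-Kit+ cells, at 167 and 151 TPM and 16 and 11 TPM against 17.5 and 21.6 TPM and 1.19 and 2.42 TPM. *Nrp2*, a co-receptor for semaphorins and VEGF-C, had 89.7 and 75.6 TPM against 16 and 16.9 TPM, and *Epha4*, an ephrin receptor, 18.7 and 16.4 TPM against 1.87 and 1.51 TPM. On c-Kit- cells *Cd44*, the hyaluronan receptor, had 41.2 and 35.5 TPM against 4.94 and 1.51 TPM, and *Cd9*, a tetraspanin, 428 and 384 TPM against 116 and 98.8 TPM. Of 28 surface markers 23 were tested, 7 (30.4%) were called higher in c-Kit+ and 6 (26.1%) in c-Kit- cells. Over all genes these shares were 9.98% and 12.9%. *Cd44* had a log2 fold change of -4.48 without c-Kit+ replicate 1.

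Several families had members in both branches, a pattern chosen for description after the values were seen. *Mycn* had 118 and 99.6 TPM in c-Kit+ cells against 30.8 and 43 TPM, and *Myc* 22 and 26.8 TPM against 109.6 and 86 TPM. Among the D cyclins, *Ccnd2* had 155 and 148 TPM against 21.3 and 16.3 TPM, *Ccnd3* 188 and 164 TPM against 627 and 534 TPM, and *Ccnd1* was not called (-0.18). The nidogens of the basement membrane differed in opposite directions, with 168 and 194 TPM against 22.5 and 18.4 TPM of *Nid2* and 10.8 and 9.22 TPM against 100.01 and 88.5 TPM of *Nid1*. The collagen IV chains *Col4a5* and *Col4a6*, a gene pair of the X chromosome, were at 4.91 and 10.9 TPM and 6.07 and 5.34 TPM in c-Kit+ cells and 1.85 and 3.14 TPM and 0.47 and 1.75 TPM in c-Kit- cells, opposite to *Col4a1* and *Col4a2*, whose log2 fold changes were -3.44 and -3.82. The splicing factors *Esrp1* and *Esrp2* had log2 fold changes of 1.42 and -1.82, and *Vegfb* and *Vegfa* of 1.35 and -1.35. *Jag1*, also in the plot of such relatives, had 1.02 and *Jag2* -1.78. *Jag1* had a log2 fold change of 0.88 and was not called without c-Kit- replicate 2. *Jag1* had a log2 fold change of 0.82 and was not called without c-Kit+ replicate 2. *Jag1* (log2 1.01) was not called with DESeq2. *Jag1* (log2 0.99) was not called with no filter on low counts. *Jag1* (log2 0.99) was not called with a minimum of 10 counts per library.

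**Figure D5:**
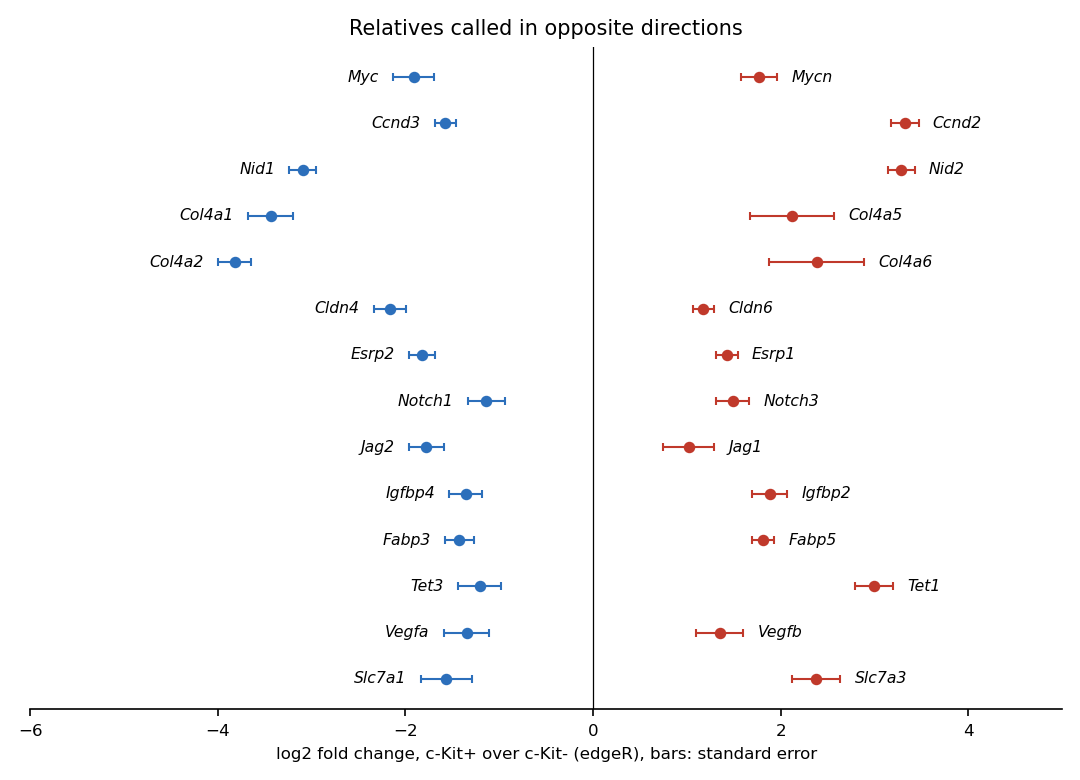
Log2 fold change with its standard error (edgeR, c-Kit+ over c-Kit-) of 14 pairs of related genes, each with a member called higher in c-Kit+ cells (red, right) and a member called higher in c-Kit- cells (blue, left). The pairs were picked for this pattern. *Nid2* and *Nid1* lie at 3.29 and -3.1, and *Ccnd2* and *Ccnd3* at 3.33 and -1.58.

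The genes that separated the populations most clearly, by the lowest TPM of the higher population over the highest TPM of the lower one (1 TPM added to each), included several outside these lists. In c-Kit+ cells the 15 leading genes were *Mup6*, *T*, *Sox2*, *Nanog*, *Tdh*, *Lefty1*, *Cyp2b23*, *Nanos3*, *Gm48377*, *Nr5a2*, *Gdf3*, *Sox3*, *Lefty2*, *Etv5* and *Enpp3*. *Enpp3*, an ectonucleotide pyrophosphatase, had 126 and 168 TPM in c-Kit+ cells against 4.56 and 4.1 TPM in c-Kit- cells. *Mup6*, named for the major urinary proteins, had 115 and 100.1 TPM against 0 and 0 TPM, and *Cyp2b23*, a cytochrome P450, 73 and 66.5 TPM against 0 and 0 TPM. In c-Kit- cells they were *Igfbp6*, *Krt7*, *Gsn*, *Exoc3l4*, *Pla2g2f*, *Cyp21a1*, *Nxf7*, *Fxyd2*, *Glipr2*, *Vgll1*, *Vgf*, *Shisal1*, *Fxyd5*, *Wnt10b* and *Plac1*. *Gsn*, the actin-severing protein gelsolin, had 222 and 187 TPM in c-Kit- cells and 6.46 and 6.38 TPM in c-Kit+ cells. *Igfbp6*, a binding protein with a preference for IGF2, had 51.9 and 48.5 TPM in c-Kit- cells and no count in c-Kit+ cells, at least 16.4-fold apart. *Nxf7*, an X-linked relative of the RNA export factors, had 262 and 279.9 TPM against 12.7 and 5.86 TPM, and *Fxyd2* and *Fxyd5*, regulators of the sodium pump, 106 and 119 TPM and 17.4 and 24.1 TPM against 0 and 5.14 TPM and 0 and 0.33 TPM. *Cyp21a1*, the steroid 21-hydroxylase, had 26.6 and 19.5 TPM and no count in c-Kit+ cells, but shares 11.5% of its words with *Cyp21a2-ps*. *Vgf* had a log2 fold change of -5.52 without c-Kit+ replicate 1.

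By abundance, the 10 highest genes called in c-Kit+ cells were *Npm1*, *Ifitm1*, *Trim28*, *Pou5f1*, *Gm38312*, *H3f3a*, *Hmga1*, *Apoe*, *Fos* and *Ifitm3*. *Trim28*, the co-repressor of KRAB zinc finger proteins, had 1386 and 1456 TPM in c-Kit+ cells against 678 and 703 TPM in c-Kit- cells, and *Npm1*, a nucleolar chaperone, 3049 and 3167 TPM against 1286 and 1652 TPM. In c-Kit- cells they were *Igf2*, *Phlda2*, *Peg10*, *Tuba1a*, *Krt8*, *Krt18*, *Gm10925*, *Lgals1*, *Dusp9* and *Jund*. *Lgals1*, galectin-1, had 1326 and 1214 TPM in c-Kit- cells against 317 and 303 TPM in c-Kit+ cells, and *Dusp9*, an X-linked phosphatase of ERK, had 1301 and 1124 TPM against 279 and 238 TPM, opposite to *Dusp4* and *Dusp6*. The whole sequence of *Gm10925* is shared with *mt-Atp6*, 39.9% of that of *Tuba1a* with *Tuba1c*, 45.9% of that of *Jund* with *Gm11175* and 46.9% of that of *Hmga1* with *Hmga1b*, so reads may have been divided between them and their levels are uncertain. *Gm10925* had 76.5 and 0.41 TPM in c-Kit+ cells and 312 and 3009 TPM in c-Kit- cells. The highest genes over all were mitochondrial or translation genes in c-Kit+ cells (*mt-Co1*, *Gm28661*, *Eef1a1*, *mt-Atp6* and *mt-Co3*), whereas *Igf2* and *Phlda2* joined *mt-Co1*, *Gm28661* and *Eef1a1* in c-Kit- cells, and *Gm28661* is wholly shared with *mt-Co2*. *Gm10925* (-6.21) and *Jund* (-0.92, not called) had these log2 fold changes without c-Kit- replicate 1. *Gm10925* had a log2 fold change of -2.95 without c-Kit- replicate 2. *Fos* (0.98, not called) and *Gm10925* (-12.91) had these log2 fold changes without c-Kit+ replicate 1. *Gm10925* had a log2 fold change of -4.34 without c-Kit+ replicate 2. *Gm10925* (log2 -5.32) was not called with DESeq2. *Npm1* (log2 0.94), *H3f3a* (log2 0.996), *Tuba1a* (log2 -0.89) and *Jund* (log2 -0.94) were not called with the GC content offset. *mt-Co3* (log2 1.09) was called with the replicate block. *mt-Co2* (log2 1.26) was called with no filter on low counts. *mt-Co2* (log2 1.8) was called without c-Kit- replicate 1. *mt-Co3* (log2 1.88) was called without c-Kit- replicate 2. *mt-Co2* (log2 2.02) was called without c-Kit+ replicate 1.

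Marker genes of other cell types were tallied as well. On the endothelium and blood list 5 of 23 genes were tested, and 2 were called higher in c-Kit+ and 1 in c-Kit- cells. The pan-leukocyte gene *Ptprc* and the endothelial genes *Emcn* and *Erg* had no count in any library. Of 12 genes of feeder fibroblasts 4 were tested, and 3, *Col1a1*, *Col1a2* and *Thy1*, were called higher in c-Kit- cells, with summed TPM of the list of 269.5 and 204 in c-Kit- cells and 145.5 and 96.2 in c-Kit+ cells. *Fap* was at 0, and *Dcn*, *Lum* and *Col3a1* did not pass the filter. The count of 3 was 5 without c-Kit- replicate 2. According to the paper, stable EpiSCs were kept without feeder cells after their first passages on feeders. The part of feeder RNA in this was not tested. On the endoderm list 9 of 23 were tested, 5 were called higher in c-Kit- and 2 in c-Kit+ cells, and the 2 were 1 without c-Kit- replicate 1 or without c-Kit+ replicate 2. *Sox17* had 16.3 and 26.8 TPM in c-Kit- cells against 5.56 and 0.66 TPM, with *Col4a1*, *Col4a2*, *Sparc* and *Pdgfra* in the same direction, while the defining genes *Hnf4a*, *Afp*, *Ttr* and *Apoa1* were at 0 in every library. On the neural list 2 of 7 tested genes were called, both higher in c-Kit- cells. *Tubb3*, a β-tubulin of neurons, had 356 and 291 TPM against 25.1 and 24.9 TPM, while *Pax6*, *Pax3*, *Neurog2* and *Olig2* had no count. Of 18 amnion and surface ectoderm genes 7 were tested, and *Wnt6*, *Krt5* and *Hand1* were called higher in c-Kit- and *Igfbp3* in c-Kit+ cells (2 genes without c-Kit- replicate 1, c-Kit- replicate 2 or c-Kit+ replicate 2), whereas *Isl1*, *Postn* and *Vtcn1* did not pass the filter. The part of such cells in the differences was not tested. *Sparc* had a log2 fold change of -0.95 and was not called without c-Kit- replicate 1. *Thy1* (-3.14) and *Sox17* (-4.77) had these log2 fold changes without c-Kit+ replicate 1. *Sox17* (-2.25) and *Pdgfra* (-2.5, not called) had these log2 fold changes without c-Kit+ replicate 2. *Sparc* (log2 -0.84) was not called with the GC content offset. *Sparc* (log2 -0.99) was not called with protein-coding genes only.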

How the data were processed

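RNA-seq of 4 libraries was analysed, 2 of each sorted population, grouped by their sample labels. Cells were detached with Trypsin-EDTA, stained for c-Kit and sorted on a FACSAria III, and libraries were made with the VAHTS mRNA-seq V3 kit. The authors aligned reads with Bowtie2 to GENCODE M13 transcripts (GRCm38) and deposited RSEM expected counts and TPM per gene, without pooling replicates. The RSEM version is not settled by the sources used here.

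Expected counts were rounded to whole numbers, filtered with filterByExpr, scaled by TMM and tested with the quasi-likelihood test of edgeR 4.0.16 in R 4.3.3, and genes were called at a Benjamini-Hochberg adjusted p under 0.05 and a fold over 2. The fit was made over all genes, and the 4 libraries gave its estimate of spread. TPM served for levels only, and folds quoted as such are ratios of mean CPM, against 3 counts per library where a population was at the floor. The floor covers counting error only. Sequence sharing is the percent of 75-base words of the transcripts of a gene, in GENCODE M21, found in another gene, and coordinates are of GRCm38. Promoters are from RefSeq, GRCm38.p6, for 8583 of the tested genes.

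Genes were named by list membership, and beyond the lists as the 15 genes of each direction with the widest separation, the 10 most abundant called genes of each direction and the 5 highest genes of each population. The members and lists were chosen with earlier results of these data known. Other settings tried were DESeq2 1.42.0, RLE scaling, testing without a count filter, a minimum of 10 counts, unadjusted p, a GC content offset, a replicate block with and without that offset, protein-coding genes only and each library left out. The fit was tested on simulated data. Libraries of the other 32 samples were not used here. Some genes of the lists enter the counts and are not reported here by name.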

Additional observations from a re-analysis of the deposited data

How the results depend on the processing

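Over all genes, 1100 were called higher in c-Kit+ and 1418 in c-Kit- cells. A minimum of 10 counts per library left 9385 genes, of which 706 and 995 were called, the fewer genes tested being part of the setting. DESeq2 called 795 and 1128, RLE factors 1088 and 1458, no filter 1175 and 1568, unadjusted p 1195 and 1498, the GC offset 1120 and 1336, and protein-coding genes alone 1090 and 1403. Leaving out each library in turn gave 823 to 1378 and 1241 to 1530. The labels do not say that equal replicate numbers pair the samples. The deposited names carry a date-like string shared by equal numbers, which no label explains, and the deviations of equal numbers correlated at 0.114 over 5509 genes and 2 pairs. With the replicate number as a block the counts were 1126 and 1401, with the block and the GC offset 1142 and 1354, and 2 of the 1196 list counts over all alternatives moved by over 1.5 times under the block.

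Of 232 called genes named in the text, 196 kept their call in every alternative in which they were fitted, 14 lost it with DESeq2, 17 with the GC offset and 1 with the replicate block. Of the list counts, 93 moved by over 1.5 times, mostly under the 10-count filter, where shared pluripotency genes called went from 18 to 9 and early germ line genes from 7 to 2. Where the fold change of an uncalled gene changed sign, the cause was not tested. The log2 values were 0.26 for *Atf4*, 0.038 for *Ccn1*, -0.051 for *Gm28661*, 0.044 for *Gnas*, -0.046 for *Id2*, -0.35 for *Kitl*, 0.32 for *Plk1*, 0.13 for *Stat3* and -0.095 for *mt-Atp6* (GC offset), and then 0.26 for *Atf4*, 0.041 for *Ccn1*, 0.0075 for *Cd81*, -0.053 for *Gm28661*, 0.043 for *Gnas*, -0.046 for *Id2*, -0.31 for *Kitl*, 0.32 for *Plk1*, 0.12 for *Stat3* and -0.091 for *mt-Atp6* (replicate block with GC offset), and then 0.0091 for *Cd81* and 0.00055 for *Plk1* (replicate block), and then 0.011 for *Cd81* and 0.0068 for *Plk1* (protein-coding genes only). Over the fits that leave out a library, values that crossed 0 were *Bmpr2* -0.93 to 0.19, *Cd81* -0.23 to 0.21, *Ddit3* -0.69 to 0.22, *Dot1l* -0.055 to 0.082, *Kitl* -0.45 to 1.03, *Lifr* -0.17 to 0.68, *Mest* -0.065 to 0.73, *Ocln* -0.42 to 0.37, *Plk1* -0.18 to 0.14, *Stat3* -0.43 to 0.25, *Tfcp2l1* -0.33 to 0.49, *Xist* -0.27 to 1.21 and *mt-Co2* -0.42 to 2.02. Depth limits low genes, since 3 counts were 1.63 to 1.74 CPM.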

Other observations

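Families outside the lists were tallied by gene name after their values were seen. Of 254 tested genes whose symbols begin with Zfp, a prefix of zinc finger proteins, 50 (19.7%) were called higher in c-Kit+ cells and 8 (3.15%) higher in c-Kit- cells, with a median log2 fold change of 0.46. With the GC offset these counts were 40 and 11 and the median was 0.31, and the median GC fraction of the transcripts was 0.461 against 0.499 over all genes tested. Of 9 chromodomain helicase (Chd) genes 5 were called, each higher in c-Kit+ cells. Of 10 Sox genes 6 were called higher in c-Kit+ and 1 in c-Kit- cells. Of 7 β-tubulin genes 5 were called, and of 7 genes whose symbols begin with Creb 4 were called, each of them higher in c-Kit- cells. The 83 ribosomal protein genes had a median of 0.52, and 0.60 with the GC offset, and 0 of them were called by edgeR (77 had an unadjusted p under 0.05), 0 by DESeq2 and 6, each higher in c-Kit+ cells, with the GC offset. What these families share beyond their names was not tested.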
